A study of Mus musculus with 42 samples.

Results

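Matrix metalloproteinases and the tissue inhibitors that block them were followed through 9 genes, Mmp2, Mmp3, Mmp9, Mmp10, Mmp13, Mmp14, Timp1, Timp2 and Timp3, out of 18193 genes measured. They were taken by gene symbol, which gave 21 of the 45037 probe sets tested, and all 21 were kept because no filter on low values was applied. RNA had been measured from cultured synovial fibroblasts, cells that build and remodel the lining of joints, on 42 Affymetrix arrays, with 1 array per culture. Per the labels' protocols, every culture came from female BALB/c mice with arthritis raised against cartilage proteoglycan (PG) in DDA adjuvant, and had passed through at most 6 passages. The labels do not name the allele of the TSG-6-KO (Tnfaip6-deficient) mice beyond that. The knockout-labelled (KO) arrays were 4 of cultures treated with TNFa, 4 with LPS, 3 with recombinant mouse TSG-6 (TSG6), 4 with hyaluronan (HA), 4 with TSG6 and HA together (TSG6+HA) and 8 untreated. The wild-type (WT) arrays were 2 for each of those 5 treatments and 5 untreated. Doses were 5 ng/ml TNFa, 200 ng/ml LPS, 120 ug/ml TSG6 and 24 ug/ml HA, for 12 h in medium with 0.5% serum. The labels call the arrays biological replicates, but nothing in them ties each culture to an animal of its own. The p-values therefore cover the spread between these cultures, which may be technical.

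Matrix metalloproteinases are zinc-dependent enzymes that are made as inactive precursors and cut collagens, proteoglycans and other matrix proteins outside the cell. Tissue inhibitors of metalloproteinases bind the active enzymes in a tight complex and block them. In the inflamed joint both are made by synovial fibroblasts, and stromelysins and collagenases from these cells are known for their part in the breakdown of cartilage. TSG-6 is a secreted hyaluronan-binding protein that TNF and LPS induce, and hyaluronan is the long sugar polymer of joint fluid.

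Mmp3 (chr9:7445822-7455975), Mmp10 (chr9:7502342-7510242) and Mmp13 (chr9:7272514-7283333) lie in the metalloproteinase cluster of mouse chromosome 9 on GRCm38.p6. The genes Mmp2 (chr8:92827290-92853421), Mmp9 (chr2:164940326-164955850), Mmp14 (chr14:54431598-54442456), Timp1 (chrX:20870166-20874737), Timp2 (chr11:118301061-118355411) and Timp3 (chr10:86300412-86349505) lie on other chromosomes. The probe sets are named by gene alone, and no source here says which exon each one reads. The upstream windows of the cluster genes are shown because these genes differed most between the genotypes or in the TNFa response. The windows are the 250 bases before the annotated start of each gene, from RefSeq on GRCm38.p6, at chr9:7445572-7445821 for Mmp3, chr9:7502092-7502341 for Mmp10 and chr9:7272264-7272513 for Mmp13, all on the plus strand. Capitals mark a match to the AP-1 motif TGANTCA and a match to the TATA letters TATAAA.
Mmp3: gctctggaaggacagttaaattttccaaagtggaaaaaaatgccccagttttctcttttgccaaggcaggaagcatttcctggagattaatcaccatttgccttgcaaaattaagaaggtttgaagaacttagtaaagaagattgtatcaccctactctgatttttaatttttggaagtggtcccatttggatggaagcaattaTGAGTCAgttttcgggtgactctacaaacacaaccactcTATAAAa
Mmp10: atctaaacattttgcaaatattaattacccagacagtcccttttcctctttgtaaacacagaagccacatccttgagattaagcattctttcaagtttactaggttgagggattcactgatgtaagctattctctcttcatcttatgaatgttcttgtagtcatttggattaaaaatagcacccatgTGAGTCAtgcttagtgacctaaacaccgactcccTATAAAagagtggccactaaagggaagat
Mmp13: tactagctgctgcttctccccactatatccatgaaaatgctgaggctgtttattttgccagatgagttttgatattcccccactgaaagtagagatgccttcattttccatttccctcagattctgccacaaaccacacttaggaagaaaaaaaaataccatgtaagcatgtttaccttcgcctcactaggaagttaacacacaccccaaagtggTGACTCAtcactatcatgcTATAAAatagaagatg
The AP-1 match began at -46 in Mmp3, -63 in Mmp10 and -35 in Mmp13, counted back from the annotated start, and the TATA match began at -7, -29 and -16. Searched on both strands, TGANTCA was present in 6.75% of all 32851 such windows, TATAAA in 12.4%, and both in 1.21%. Of the 9 members, 7 had a window, while Mmp2 and Mmp9 had none and were not searched for any motif. No match to AP-1 or TATA was found in the windows of Mmp14, Timp1, Timp2 and Timp3. The NF-kB letters, GGGA and CC with any 4 bases between them, matched none of the 7 windows, against 17.6% of all windows. A match is a stretch of letters, and binding was not measured here.

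Values are log2 expression relative to the median of each probe set over the 42 arrays, so they show differences between arrays and carry no level of one gene against another. A fold change is the difference of group means on this log2 scale, ± SE, and a gene is called where its limma p, adjusted by the Benjamini-Hochberg method over 45037 probe sets, is below 0.05. Where a gene had several probe sets, the one with the largest SD over the arrays stands for it. In each genotype the arrays fell into a pair of sets of cultures that the labels do not name (a and b), found from the data, with 14 and 13 KO and 8 and 7 WT arrays. The genes that split them included the endothelial markers Cdh5 and Emcn in KO and the fibroblast marker Lum in WT. Whether the sets differ in the make-up of the cultures was not tested. Each treated WT group held 1 array of each set. The 18S ribosomal RNA probe set was above 1 on 10 KO and 5 WT arrays, and all 5 of those WT arrays were of set b. The targeted gene Tnfaip6 averaged -0.11 in untreated KO and -0.36 in untreated WT cultures, a difference of 0.26 ± 0.15 (limma, adjusted p = 0.254), so its probe set did not check the genotype label.

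Cell type markers differed between the genotypes and are given here because every comparison of KO with WT touches them. The mean of 10 endothelial markers, among them Pecam1 (-6.20 ± 0.62) and Cdh5 (-5.67 ± 0.58), lay between -1.44 and 0.30 on untreated KO arrays and between 4.11 and 4.49 on untreated WT arrays, and 10 of 10 were lower in KO. Of 11 fibroblast markers, Prg4, Lum, Pdgfra and Dcn were higher in KO and Thy1, Col1a1 and Col1a2 were lower. The mean of 11 macrophage markers ran between -0.38 and -0.03 on untreated KO arrays and between 0.02 and 0.08 on untreated WT arrays, and that of 8 neutrophil markers between -0.39 and 0.09 against -0.79 and -0.50. Centred values cannot show whether a marker is at background. In such bulk samples fewer cells of a type and less RNA per cell cannot be told apart, and the part of these markers in the results was not tested.

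**Figure D1:**
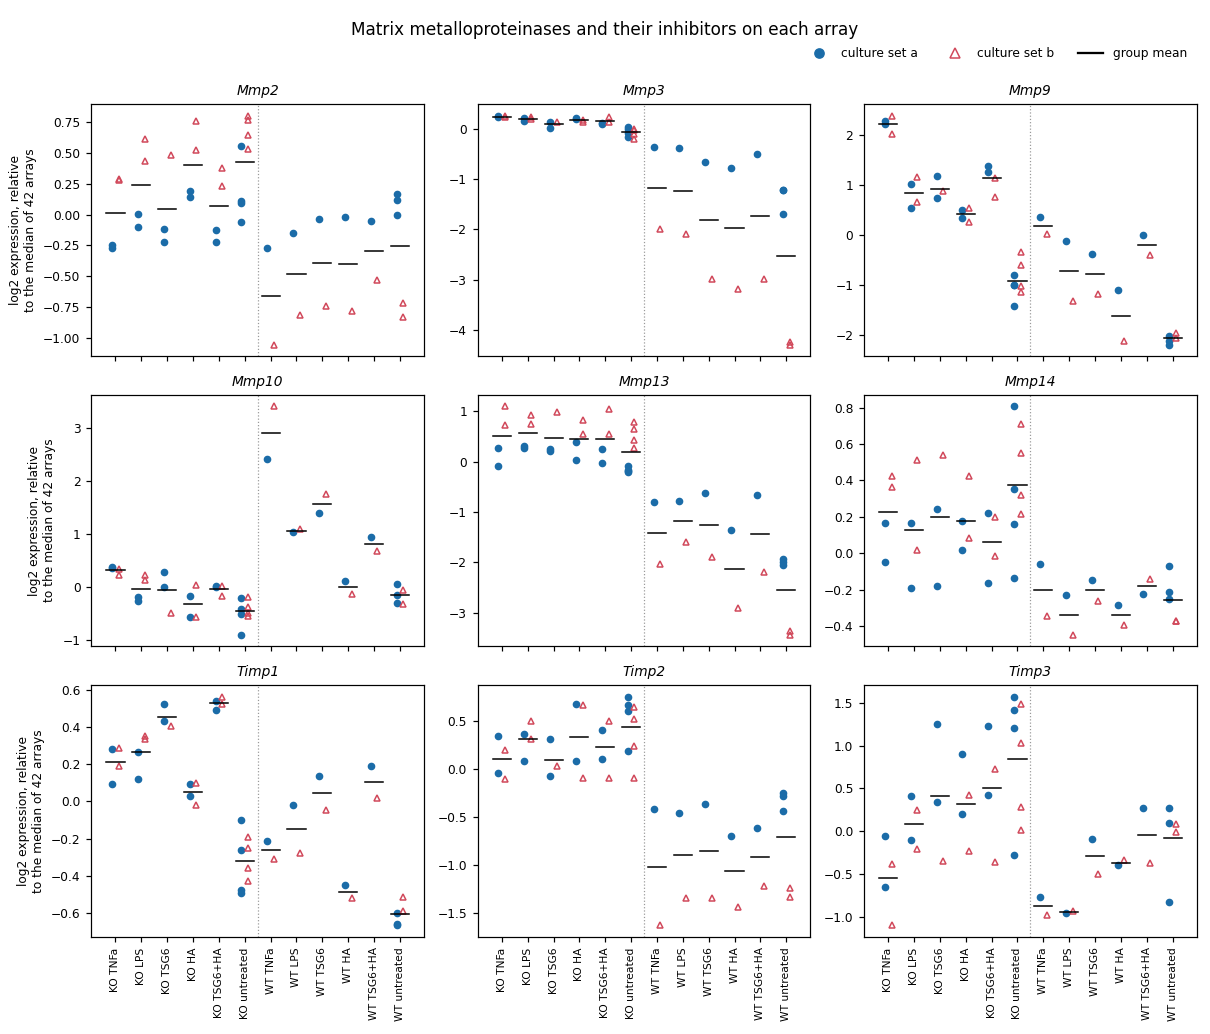
Each panel shows 1 gene, with the log2 expression of its representative probe set relative to the median of 42 arrays on the vertical axis and the 12 groups on the horizontal axis. Filled circles are arrays of culture set a, open triangles arrays of culture set b, and bars group means. Mmp3 and Mmp13 lay below every KO array on all WT arrays, Mmp10 was highest on the 2 WT arrays with TNFa (2.41 and 3.42), and Mmp9 was highest on the 4 KO arrays with TNFa (2.02 to 2.38).

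Without treatment, 8 of the 9 genes were higher in KO than in WT cultures, the collagenase Mmp13 and the stromelysin Mmp3 by the most. This comparison asks how the genotypes differ at rest. It called 36.5% of all genes, so a high share of called genes was not particular to the family. The median difference of the 9 genes was 0.92, against 0.017 over all probe sets. Array medians lay between -0.0239 and 0.0252, so the median over all probe sets is small in any comparison, here and in the responses below. The 9 genes, chosen with earlier results known, are therefore not shown to stand out by it.

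Mmp13, which cuts type II collagen of cartilage, had a lowest, median and highest value of -0.21, 0.10 and 0.80 on the 8 untreated KO arrays, against -1.98, -1.93, -2.06, -3.44 and -3.36 on the 5 untreated WT arrays. No WT array reached the KO range, and the WT arrays split by culture set, with the 2 of set b lowest. The difference was 2.75 ± 0.31, or 6.71-fold (adjusted p = 6.27e-09). Mmp3, the broad-acting stromelysin 1 that also activates other pro-MMPs, had -0.20, -0.05 and 0.05 as its lowest, median and highest value in untreated KO cultures, against -1.69, -1.21, -1.22, -4.29 and -4.24 in untreated WT cultures. The KO arrays were close together and the WT arrays were spread widely, again by set. Its difference was 2.47 ± 0.45, or 5.53-fold (adjusted p = 3.86e-05), and with quantile normalization 1.58 (adjusted p = 1e-06).

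The size of these differences depended on the culture sets, which are nested in the genotype. For Mmp3 it was 1.32 and 1.30 for KO sets a and b against WT set a, and 4.22 and 4.19 against WT set b. For Mmp13 it ran between 1.83, for KO set a against WT set a, and 3.94, for KO set b against WT set b. All of these pairs of sets were called for both genes, so their direction did not rest on 1 set, whereas the fold did.

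Among the gelatinases, Mmp9, which cuts denatured collagen and type IV collagen, was higher in untreated KO cultures by 1.15 ± 0.18 (adjusted p = 1.93e-06) and was called in all 4 pairs of sets (0.95 to 1.34). Its arrays ran between -1.43 and -0.35 in KO and between -2.20 and -1.96 in WT and did not overlap, but with quantile normalization of the centred values the difference was 0.15 (adjusted p = 0.773). Mmp2, the constitutive gelatinase of fibroblasts, was higher by 0.68 ± 0.20 (adjusted p = 0.00903). It ran between 0.08, not called, for KO set a against WT set a and 1.46 for KO set b against WT set b. With the 15 arrays of high 18S removed it was 0.42 (adjusted p = 0.163), and without untreated WT replicate 5 it was 0.54 (adjusted p = 0.0584). Mmp14, the membrane-anchored enzyme that activates pro-MMP2, was higher by 0.63 ± 0.13 (adjusted p = 0.000216). Its smallest difference between sets, 0.47 for KO set a against WT set a, was not called (adjusted p = 0.0608).

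All 3 inhibitors were higher in untreated KO cultures. Timp2, which also takes part in the activation of pro-MMP2 by Mmp14, was higher by 1.15 ± 0.22 (adjusted p = 5.38e-05), with 0.65 to 1.85 over the pairs of sets. Of its 6 probe sets 5 were called, by 0.62 to 1.15, and the other followed the 18S probe set (r = 0.84) and was not (0.84, adjusted p = 0.145). Timp1, a secreted inhibitor that inflammatory signals induce, was higher by 0.29 ± 0.06 (adjusted p = 0.000613). Its arrays did not overlap, with -0.49 to -0.10 in KO and -0.67 to -0.52 in WT, yet with quantile normalization the difference was 0.16 (adjusted p = 0.154), and neither KO set was called against WT set b. Timp3, the inhibitor that binds the matrix and also blocks ADAM17, was higher by 0.92 ± 0.29 (adjusted p = 0.0142), or 1.47 with quantile normalization (adjusted p = 0.0213). It spread widely in KO, from -0.28 to 1.57. It was called in none of the 4 pairs of sets (0.67 to 1.13) and lost its call without untreated WT replicate 1 (0.73, adjusted p = 0.0757). Its other 3 probe sets were called at 0.89 to 1.10, where all probe sets tested gave 28.6%. Mmp10, stromelysin 2, was the exception of the 9, at -0.30 ± 0.14 (adjusted p = 0.102). With only the untreated groups fitted it was called lower in KO (adjusted p = 0.0497), as it was with quantile normalization (-0.42, adjusted p = 0.0311).

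**Figure D2:**
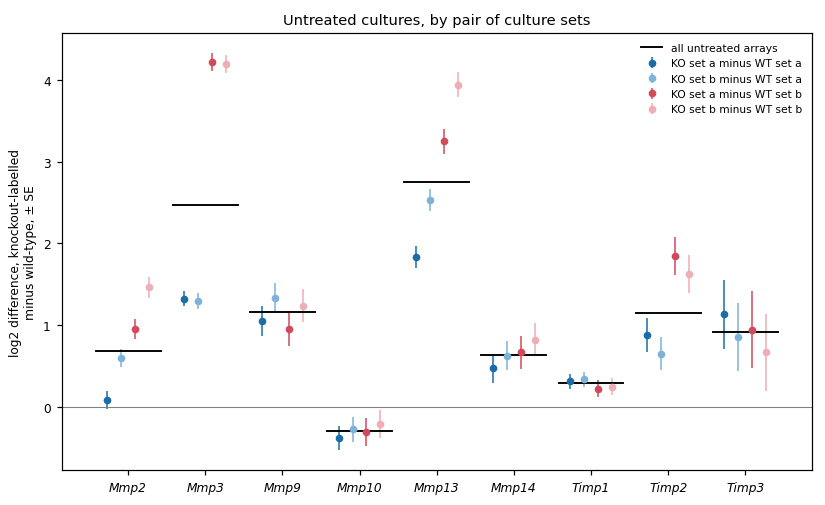
Difference between untreated KO and WT cultures for each gene, as log2 difference ± SE on the vertical axis, with a point for each of the 4 pairs of culture sets and a bar for all untreated arrays. The points of Mmp3 fall into 2 levels, 1.30 to 1.32 against WT set a and 4.19 to 4.22 against WT set b, while those of Mmp9, Mmp10 and Timp1 lie close together.

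With the culture sets left out of the fit, the treatments moved few of the 9 genes. Of these, Mmp9, Mmp10 and Timp1 accounted for every rise that was called. In KO cultures TNFa changed 4 genes (Mmp9, Mmp10 and Timp1 higher, Timp3 lower), against 13.1% of all genes called, and LPS (1.55%), TSG6 (4.42%), HA (0.467%) and TSG6+HA (8.95%) each changed 2, Mmp9 and Timp1, both higher. In WT cultures TNFa changed 2, Mmp9 and Mmp10 (2.45% of all genes), while LPS (1.08%), TSG6 (0.363%) and TSG6+HA (0.687%) each changed 3, Mmp9, Mmp10 and Timp1, all higher. HA changed none of the 9 in WT cultures by limma, where 0.121% of all genes were called and 4.00% of probe sets had an unadjusted p below 0.05. The median change of the 9 genes lay between 0.14 and 0.31 over the 5 KO responses and between 0.12 and 0.71 over the 5 WT responses, against -0.004 to 0.017 over all probe sets. The 5 responses of a genotype share its untreated arrays, and so their calls are not independent of each other. With the culture set as a block, 5 of the 9 genes were called in WT with TNFa, LPS, TSG6 and TSG6+HA, all higher. Mmp3 and Mmp13 were among them each time. The share of all genes called was not counted for that fit, so these counts have no background beside them.

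Mmp9 rose with every treatment in KO cultures and with 4 of 5 in WT cultures. With TNFa it stood at 2.21, 2.26, 2.02 and 2.38 in KO cultures, against a lowest, median and highest value of -1.43, -1.02 and -0.35 in untreated KO cultures. The treated arrays lay clear of all untreated ones, and the rise was 3.14 ± 0.19, or 8.84-fold (adjusted p = 6.05e-15). With TNFa in WT cultures it stood at 0.35 and 0.01, against -2.20, -2.03, -2.12, -2.08 and -1.96 untreated, a rise of 2.26 ± 0.26 or 4.79-fold (adjusted p = 3.13e-07). In KO cultures with TNFa 2 of 11 macrophage markers, Csf1r (0.84) and Cd14 (1.06), were called higher. So were 2 of 6 osteoclast markers, Calcr (0.52) and Ocstamp (0.31), in a comparison that called 13.1% of all genes. The median differences of the lists were 0.077 for macrophage and 0.237 for osteoclast markers. The mean of the macrophage list ran between -0.05 and 0.19 with TNFa and between -0.38 and -0.03 untreated, and that of the osteoclast list between 0.09 and 0.31 and between -0.23 and 0.12. The part of these cell types in the Mmp9 values was not tested.

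The other treatments raised Mmp9 by less. In KO cultures it rose by 1.77 ± 0.19 with LPS, 1.85 ± 0.21 with TSG6, 1.33 ± 0.19 with HA and 2.06 ± 0.19 with TSG6+HA. With quantile normalization the rises in KO were 2.72 with LPS, 2.91 with TSG6 and 3.35 with TSG6+HA, all called. The 15 arrays of those 4 groups lay between 0.26 and 1.37, above every untreated KO array, and Mmp9 ranked 5 of 18193 genes by rise both with HA and with LPS. In WT cultures it rose by 1.35 ± 0.26 with LPS, 1.29 ± 0.26 with TSG6 and 1.87 ± 0.26 with TSG6+HA. The WT responses differed by culture set, with 1.99 in set a and 0.69 in set b for LPS, and 1.73 and 0.83 for TSG6. Without the set a array the LPS rise of 0.75 (adjusted p = 0.892) and the TSG6 rise of 0.89 (adjusted p = 1) were no longer called, and with quantile normalization the LPS, TSG6 and TSG6+HA rises lost their call as well (adjusted p of 1, 1 and 0.558). HA gave -1.11 and -2.13 in WT cultures, a difference of 0.46 ± 0.26 that was not called. The genotype difference in the TNFa response of Mmp9 was 0.89 ± 0.32 (adjusted p = 0.422), but with quantile normalization it was 2.33 and called (adjusted p = 0.00705). That setting gives the centred values of all arrays the same distribution. With it the TNFa rise of Mmp9 became 3.99 in KO and 1.67 in WT cultures. The second probe set of Mmp9 followed the first across the 42 arrays (r = 0.98). For TSG6 in WT cultures, however, 1 of the 2 probe sets was called, the first (1.288) and not the second (1.172).

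In the order of its 12 group means, Mmp9 was highest in KO cultures with TNFa (2.22) and lowest in untreated WT cultures (-2.08). Most neighbours in that order overlapped, and those that did not were WT TNFa above WT TSG6+HA, KO LPS above KO HA, and KO TNFa above KO TSG6+HA.

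Mmp10, which cuts proteoglycans and can activate pro-MMP1, had the largest difference between the genotypes in its TNFa response. With TNFa it stood at 0.35, 0.37, 0.22 and 0.34 in KO cultures, against -0.91, -0.46 and -0.19 as lowest, median and highest untreated. With TNFa in WT cultures it stood at 2.41 and 3.42, against -0.15, -0.30, 0.06, -0.32 and -0.07 untreated. In neither genotype did the treated arrays overlap the untreated ones, and the 2 WT arrays with TNFa were the highest of all 42. The rise was 0.78 ± 0.15 in KO, or 1.72-fold (adjusted p = 0.000259), and 3.07 ± 0.20 in WT, or 8.38-fold (adjusted p = 7.94e-13). With quantile normalization the WT rise was 1.93 (adjusted p = 1.37e-06). By rise Mmp10 ranked 9 of 18193 genes in the WT response.

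Tested directly, the TNFa response of Mmp10 was smaller in KO than in WT cultures, with a difference of -2.29 ± 0.25 (adjusted p = 7.03e-07) or 4.88-fold, in a comparison that called 0.764% of all genes. Mmp10 was the 1 member called there, ranking 18192 of 18193 genes in order of the difference. Within the culture sets named a it was -1.66 ± 0.28 (adjusted p = 0.00954) and within those named b it was -2.92 ± 0.30 (adjusted p = 7.44e-06), a pairing of sets across genotypes that only the letters make. Each of these values rests on 1 WT array with TNFa, and the spread is taken from the other arrays of the fit. With quantile normalization the difference was -1.02 (adjusted p = 0.0675), the 1 of 26 alternatives in which the call was lost. Of 10 endothelial markers, Cldn5 (-1.20 ± 0.25) and Ptprb (-1.24 ± 0.28) were called lower with TNFa in WT cultures, where 2.45% of all genes were called. The median of the 10 was -0.415. Of 11 macrophage markers Aif1 was higher with TNFa in WT (0.83 ± 0.12), and its response was smaller in KO (difference -0.75 ± 0.14, adjusted p = 0.00676). The part of endothelial cells and macrophages in the Mmp10 result was not tested.

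With LPS, TSG6 and TSG6+HA the rise of Mmp10 was called in WT and not in KO cultures, and the test of the difference between the genotypes was not passed for any of them. It rose in WT cultures by 1.22 ± 0.20 with LPS (1.04 and 1.09), by 1.73 ± 0.20 with TSG6 (1.40 and 1.75) and by 0.96 ± 0.20 with TSG6+HA (0.94 and 0.69). The LPS rise lost its call with quantile normalization (0.93, adjusted p = 0.085). The TSG6+HA rise lost it without either of its 2 arrays, at 0.84 without replicate 1 and 1.09 without replicate 2. It also lost it with quantile normalization (0.75, adjusted p = 0.803) and with the 15 arrays of high 18S removed (1.11). That removal leaves the set a array of the group alone, as leaving out replicate 2 does, so it is no separate check. In KO cultures the differences were 0.43 ± 0.15 with LPS, 0.39 ± 0.16 with TSG6 and 0.42 ± 0.15 with TSG6+HA, none called. With quantile normalization the TSG6+HA difference in KO was called (0.50, adjusted p = 0.0381), while that in WT was not. Of 10 endothelial markers, Cldn5 (-2.40) and Ptprb (-1.34) were called lower in WT cultures with LPS, where 1.08% of all genes were called. With TSG6+HA Cldn5 alone was (-1.64), where 0.687% were, and with TSG6 none was. The medians of the 10 markers were -0.504 with LPS, -0.297 with TSG6+HA and -0.164 with TSG6. The genotype difference in the response of Cldn5 was called for LPS (2.27) and TSG6+HA (1.51), and the part of these markers in the Mmp10 values was not tested.

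The genotype difference in the response of Mmp10 was -0.79 ± 0.25 for LPS (adjusted p = 0.795) and -1.34 ± 0.26 for TSG6 (adjusted p = 0.0579). The TSG6 difference was called in some alternatives, among them the culture set as a block (-1.32, adjusted p = 0.0202) and without untreated WT replicate 3 (-1.39, adjusted p = 0.0332). It was -0.54 ± 0.25 for TSG6+HA and -0.00 ± 0.25 for HA. None of the 9 genes was called for LPS (0.187% of all genes called and 2.44% of probe sets with an unadjusted p below 0.05), TSG6 (0.033% and 3.47%), HA (0.022% and 2.36%) or TSG6+HA (0.143% and 6.04%).

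By group mean Mmp10 was lowest in untreated KO cultures (-0.46) and highest in WT cultures with TNFa (2.91). The 5 highest groups were KO TNFa, WT TSG6+HA, WT LPS, WT TSG6 and WT TNFa in rising order, each without overlap with the next. Below them WT HA, the nearest group, did not overlap KO TNFa, and the other neighbours overlapped.

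Mmp3 and Mmp13 behaved alike, and neither was called in any of the 10 responses when all arrays of a group were pooled. Their WT values were split by culture set. Mmp3 with TNFa stood at -0.35 (set a) and -1.99 (set b) in WT cultures, against -1.69, -1.21 and -1.22 (set a) and -4.29 and -4.24 (set b) untreated. Each treated array lay above the untreated arrays of its own set, while the pooled groups overlapped, and the pooled difference was 1.36 ± 0.67 (adjusted p = 0.645). Set against untreated cultures of the same set, with the 1 treated array assumed to vary like the other groups, Mmp3 rose by 1.02 ± 0.14 in set a and 2.28 ± 0.15 in set b with TNFa. With LPS the rises were 0.99 ± 0.14 and 2.19 ± 0.15, and all 4 were called.

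With the culture set as a block, TNFa raised Mmp3 in WT cultures by 1.60 ± 0.16 (adjusted p = 9.65e-09), LPS by 1.53, TSG6 by 0.95, HA by 0.79 and TSG6+HA by 1.02, and all 5 were called. The same fit raised Mmp13 by 1.27 ± 0.15 with TNFa (adjusted p = 1.74e-07), 1.50 with LPS, 1.43 with TSG6 and 1.26 with TSG6+HA, and left the 0.56 with HA uncalled (adjusted p = 0.158). Within the sets Mmp13 rose by 1.20 (a) and 1.37 (b) with TNFa, by 1.22 and 1.81 with LPS and by 1.37 and 1.50 with TSG6. The block fit assumes the same response in sets a and b. For Mmp3, whose sets differed with TNFa and LPS, its values are averages over them. The genotype differences under the block rest on the same assumption.

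In KO cultures both genes gave small differences. Mmp3 lay between -0.20 and 0.26 on all 27 KO arrays, with treated groups above the untreated arrays for TNFa, LPS, HA and TSG6+HA but differences of only 0.17 to 0.31, none called. Fitted with untreated KO cultures alone, the TNFa difference of 0.31 was called (adjusted p = 0.0117). Mmp13 lay between -0.21 and 1.10 there, higher in set b than in set a, with differences of 0.26 to 0.38, none called. Under the block Mmp13 was called in KO for TNFa (0.31, adjusted p = 0.0458) and TSG6 (0.40, adjusted p = 0.0378). The centred values do not show whether the KO arrays were near the top of the range that these probe sets can read.

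The genotype difference in these responses depended on the same choice. Pooled, it was -1.05 ± 0.82 for Mmp3 and -0.82 ± 0.57 for Mmp13 with TNFa, neither called. With the culture set as a block it was called for Mmp3 with TNFa (-1.28 ± 0.20, adjusted p = 0.00018), LPS (-1.26) and TSG6+HA (-0.81, adjusted p = 0.0469), and for Mmp13 with TNFa (-0.96 ± 0.18, adjusted p = 0.00235), LPS (-1.13), TSG6 (-1.03) and TSG6+HA (-0.996). In the order of group means all 6 WT groups lay below all 6 KO groups for both genes, without overlap between the highest WT group (TNFa for Mmp3, LPS for Mmp13) and untreated KO cultures, while every other pair of neighbours overlapped. Across all 42 arrays Mmp3 and Mmp13 had r = 0.92, with 0.92 over the 15 WT and 0.32 over the 27 KO arrays, which share groups and sets.

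**Figure D3:**
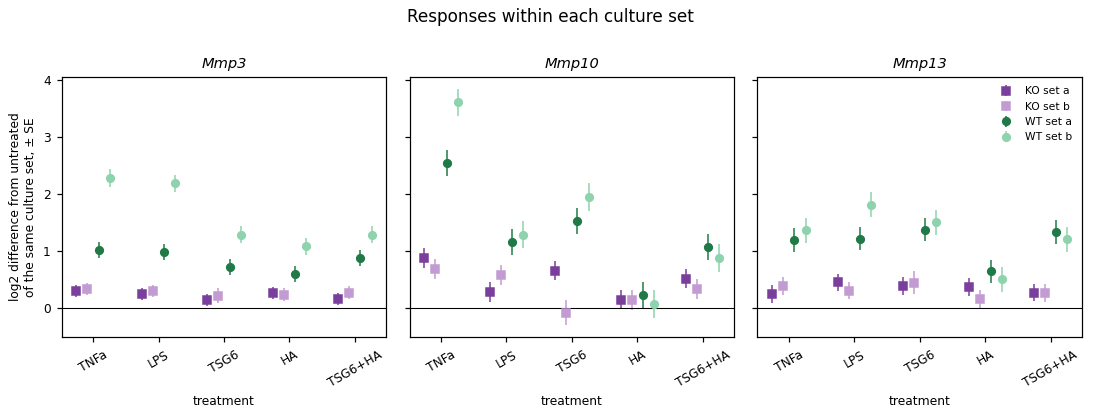
Change from untreated cultures of the same culture set, as log2 difference ± SE on the vertical axis, for each treatment on the horizontal axis and for Mmp3, Mmp10 and Mmp13 in separate panels. Squares are KO and circles WT sets, each WT point resting on 1 treated array. WT set b gave the largest change of Mmp3 with TNFa (2.28) and LPS (2.19), and KO points of Mmp3 lay between 0.14 and 0.33.

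Mmp2 and Mmp14 were not called in any of the 10 responses. Mmp2 had differences of -0.42 to -0.03 in KO and -0.41 to -0.04 in WT cultures, all below 0. Its arrays split by culture set, with set b higher in KO and set a higher in WT, and under the set as a block it was called lower in KO with TNFa (-0.42, adjusted p = 0.000198), TSG6 (-0.29, adjusted p = 0.0407) and TSG6+HA (-0.36, adjusted p = 0.00171). Mmp14 had differences of -0.31 to -0.15 in KO and -0.09 to 0.07 in WT cultures. The largest, -0.31 ± 0.14 with TSG6+HA in KO cultures, had an adjusted p of 0.212.

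Timp1 was the inhibitor that rose. In KO cultures it was higher with every treatment, most with the 2 that contained TSG6. With TSG6+HA it stood at 0.54, 0.49, 0.56 and 0.52 in KO cultures, against -0.49, -0.31 and -0.10 as lowest, median and highest untreated, a rise of 0.85 ± 0.07 or 1.80-fold (adjusted p = 2.66e-10). The groups were far apart for their narrow spread. The rise in KO was 0.77 ± 0.08 with TSG6, 0.59 ± 0.07 with LPS, 0.53 ± 0.07 with TNFa and 0.37 ± 0.07 with HA. The HA rise lost its call with only the groups compared in the fit (adjusted p = 0.17) and with the 15 arrays of high 18S removed (adjusted p = 0.112).

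In WT cultures Timp1 with TSG6+HA stood at 0.19 and 0.02, against -0.66, -0.67, -0.60, -0.52 and -0.59 untreated, a rise of 0.71 ± 0.10 or 1.64-fold (adjusted p = 2.39e-05). It rose by 0.65 ± 0.10 with TSG6 and by 0.46 ± 0.10 with LPS. These last 2 lost their call without the set a array (0.56, adjusted p = 0.115, and 0.33, adjusted p = 0.718) and with quantile normalization. With TNFa the difference was 0.34 ± 0.10 (adjusted p = 0.0585), called with the culture set as a block (adjusted p = 0.0279), and with HA it was 0.12 ± 0.10. The genotype differences in these responses were 0.12 to 0.25, none called. By group mean Timp1 was highest in KO cultures with TSG6+HA (0.53) and lowest in untreated WT cultures (-0.60), and the 1 pair of neighbours that did not overlap was KO TSG6 above KO LPS.

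Timp3 fell, and Timp2 was not called in any response. With TNFa in KO cultures Timp3 stood at -0.05, -0.64, -0.39 and -1.10, against a lowest, median and highest value of -0.28, 1.12 and 1.57 untreated, a change of -1.38 ± 0.31, or 2.61-fold lower (adjusted p = 0.00204). The groups overlapped, since untreated KO replicates 4, 7 and 8 were low at -0.28, 0.01 and 0.28. Replicates 7 and 8 were the 2 untreated KO arrays with a high 18S signal, and without all such arrays the difference was -1.29 and not called (adjusted p = 0.0587). With quantile normalization it was -2.11 (adjusted p = 0.00491). The other 3 Timp3 probe sets fell by 1.41, 1.53 and 1.68 and were called, where 10.1% of all probe sets were.

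With LPS the Timp3 probe sets disagreed on the call. In KO cultures 2 of 4 were called lower (-0.73 and -0.68), where 1.05% of all probe sets were, and in WT cultures 2 of 4 (-1.04 and -1.02), where 0.726% were. The representative one stood at -0.75 ± 0.31 and -0.86 ± 0.43 and was called in neither. In WT cultures with TNFa it was -0.79 ± 0.43, and the genotype difference in that response was -0.59 ± 0.53, neither called. With TSG6, HA and TSG6+HA it lay between -0.52 and -0.33 in KO and between -0.29 and 0.03 in WT cultures. Timp2 had differences of -0.35 to -0.11 in KO and -0.36 to -0.14 in WT cultures. All 6 WT groups of Timp2 lay below all 6 KO groups, the arrays of KO TSG6 not overlapping those of untreated WT, the nearest neighbours across the genotypes.

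**Figure D4:**
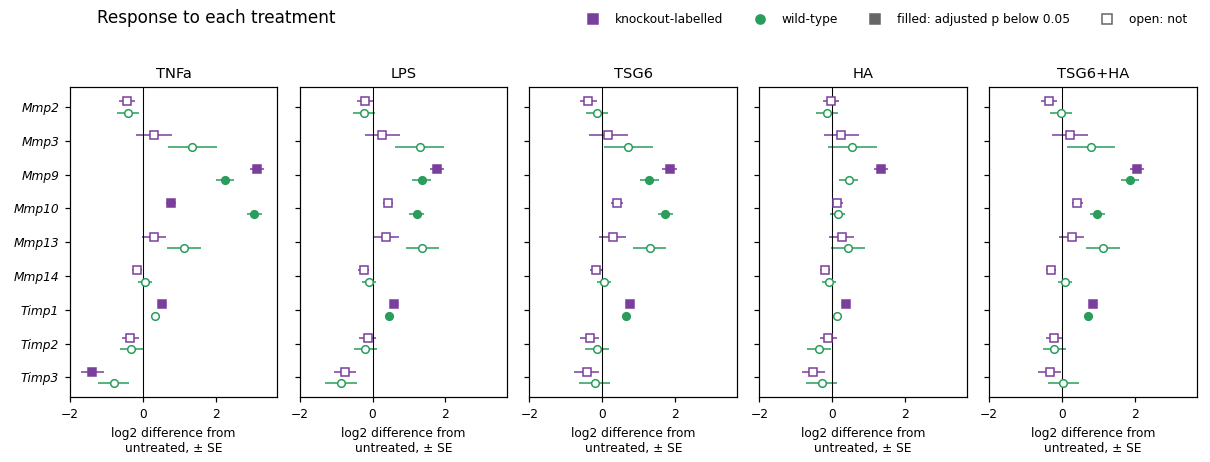
Change from untreated cultures of the same genotype, as log2 difference ± SE on the horizontal axis, for the 9 genes down the page and a panel for each treatment. Squares are KO and circles WT cultures, and filled marks have an adjusted p below 0.05. Mmp9 was filled in 9 of 10 responses, Timp1 in 8, Mmp10 in 5 and Timp3 in 1, and Mmp10 with TNFa shows the largest gap between the genotypes (0.78 in KO and 3.07 in WT).

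The combined treatment was also set against each single one, to ask what TSG6 adds to HA and HA to TSG6. In KO cultures Timp1 was higher with TSG6+HA than with HA alone by 0.48 ± 0.08 (adjusted p = 0.00066), the 1 member called where 1.56% of all genes were. Its 4 TSG6+HA arrays lay between 0.49 and 0.56 and its 4 HA arrays between -0.02 and 0.10. The call was lost with only the 2 groups in the fit (adjusted p = 0.0659). Mmp9 was higher there by 0.72 ± 0.22 (adjusted p = 0.115), without overlap (0.76 to 1.37 against 0.26 to 0.54). This difference was called with the culture set as a block (adjusted p = 0.0316) and with quantile normalization (1.50, adjusted p = 0.00574). In WT cultures the same comparison gave 0.59 ± 0.11 for Timp1 (adjusted p = 0.219) and 1.41 ± 0.31 for Mmp9 (adjusted p = 0.468), neither called by limma, with 0.0055% of all genes called and 3.04% of probe sets at an unadjusted p below 0.05. With the culture set as a block both were called, Timp1 with an adjusted p of 0.0298 and Mmp9 with 0.0333.

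Against TSG6 alone no member was called by limma in either genotype, where 0% of all genes were, with 3.74% of probe sets in KO and 2.65% in WT at an unadjusted p below 0.05. The largest difference was that of Mmp10 in WT cultures, 0.94 and 0.69 with TSG6+HA and 1.40 and 1.75 with TSG6, at -0.76 ± 0.24 (adjusted p = 1). In KO cultures it was 0.03 ± 0.18.

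Other enzymes of matrix breakdown were counted by lists for which 14 of 19 further metalloproteinases and inhibitors, 12 of 14 ADAMTS proteases, 9 of 9 ADAM sheddases and 9 of 9 cathepsins and cystatins were measured. With TNFa the aggrecanase Adamts4 rose by 2.12 ± 0.15 in KO and by 0.77 ± 0.21 in WT cultures, and the difference between these responses was itself called (1.35 higher in KO). Adamts7 went the other way, with 0.52 ± 0.13 in KO and 1.39 ± 0.17 in WT cultures and a called difference of -0.87. Reck, a membrane-anchored inhibitor of metalloproteinases, fell with TNFa in both, by 1.08 ± 0.16 on the log2 scale in KO and 0.84 ± 0.22 in WT cultures.

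By list, TNFa changed 2 higher (Mmp12, the macrophage elastase, and Mmp1b) and 3 lower (Mmp11, Mmp16 and Reck) of 14 metalloproteinases and inhibitors in KO, against 1 and 1 in WT (Mmp1b and Reck), where TNFa called 13.1% of all genes in KO and 2.45% in WT. It raised 3 of 12 ADAMTS genes in KO and 2 in WT, and of 9 ADAM genes Adam8 rose (1.11) and Adam9 fell (-0.40) in KO and none was called in WT. No cathepsin or cystatin was called with TNFa, while Ctsh fell with LPS in WT cultures (-0.48). Of the same 14 metalloproteinases and inhibitors LPS raised Mmp8, the neutrophil collagenase, in KO (0.62) and none in WT. TSG6 raised 1 (Mmp12) and lowered 2 (Mmp11 and Reck) in KO and none in WT, and HA called none in either. The shares of all genes called were 1.55% in KO and 1.08% in WT for LPS, and 4.42% and 0.363% for TSG6. Of the 8 neutrophil markers measured, Camp rose in all 10 responses, by 0.78 to 1.80, and S100a8 rose in KO with TNFa (1.46) and TSG6+HA (1.94). No other marker of that list was called in any response. The median of the list ran from -0.066 with TSG6 to 0.298 with TSG6+HA, both in KO cultures. The part of other cell types in these changes was not tested.

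With TSG6+HA the KO cultures had Mmp12 (0.95), Mmp8 (0.64) and Mmp1a (0.25) higher and Mmp11 (-0.84) and Reck (-0.82) lower. Adamts4 (1.01), Adamts3, Adamts12 and Adam12 were also called higher, and Cst3 and Cst6 lower. No gene of the 4 lists was called in WT, where 0.687% of all genes were called, against 8.95% in KO. Mmp12 was also higher with TSG6+HA than with HA alone in KO cultures (0.80 ± 0.15). In untreated cultures 6 of the 14 further metalloproteinases and inhibitors were higher in KO, led by Mmp16 (1.81) and Reck (1.50), and Mmp17 was lower (-0.41), in a comparison that called 36.5% of all genes. The ADAMTS genes had 2 higher, among them Adamts5 (1.44), and 5 lower, among them Adamts12 (-2.85) and Adamts9 (-2.67). There were 2 ADAM genes higher and 3 lower, and 5 cathepsins and cystatins higher and 2 lower.

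The genes whose pattern was most like that of each member were found by Pearson's r over the 42 arrays, which share groups, genotypes and culture sets. For Mmp3 they were Saa3 (0.98), Hp (0.94) and Serpina3n (0.94), and for Mmp13 Angptl4 (0.96), Gpm6b (0.96) and Ppm1h (0.95). For Mmp9 they were Nos2 (0.92), Cxcl16 (0.92) and Acvr1b (0.91), and for Mmp10 Ltb (0.86), Adamts7 (0.79) and Gper1 (0.79). Mmp2 was closest to Apoe (0.94) and Mmp14 to Naglu (0.92). Timp1 was closest to Fkbp14 (0.88), Timp2 to Prelp (0.97) and Timp3 to Thbs1 (0.90). Serpina3n, Apoe and Prelp were among the genes that split the WT arrays into culture sets, so their r with these members is not free of that split. Among the members themselves Mmp9 and Timp1 had r = 0.83, with 0.73 over KO and 0.80 over WT arrays, whereas Mmp9 and Timp3 had -0.63 over KO and -0.36 over WT arrays.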

How the data were processed

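Per the labels' protocols, RNA of 42 cultures was hybridised to Affymetrix mouse arrays, 1 array per culture. Per the submitters' processing notes the values were made with RMA, with no version given. The values deposited by the authors are on a log scale, taken as log2 from their largest range of 9.81, and each probe set was centred on its median over the 42 arrays (largest remaining median 5.0e-07). Levels of different genes were therefore not compared, and a filter on dim probes could not be made.

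Of 45101 probe sets, 64 controls were left out and 45037 tested, of which 34945 had 1 gene, 932 several and 9160 none in the platform annotation, and 34741 were matched by gene number, giving 18193 genes. Array medians lay between -0.0239 and 0.0252, no array was a duplicate of another, and the precision is limited by the number of arrays. limma 3.58.1 in R 4.3.3 fitted 12 group means with lmFit and eBayes (30 residual and 4.64 prior degrees of freedom). Adjustment was by Benjamini-Hochberg over all probe sets of a comparison at 0.05, checked on simulated data first. A gene was represented by its probe set with the largest SD, avoiding those with r above 0.7 with the 18S probe set. Of each other list, the 4 genes with the smallest adjusted p in a comparison were named, and for each member the 3 genes of highest correlation. Called genes beyond these were named where a count was small, after their values were seen. Members and lists were chosen with earlier results of these data known.

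Culture sets were found from probe sets with a gap of at least 1 log2 unit between arrays, 33 of 33 in WT and 12 of 13 in KO dividing the arrays alike. The sets are nested in genotype, so they entered as a fixed block for responses and as a random block for the untreated difference. Alternatives were quantile normalization, fitting only the groups compared, a replicate block, the culture set as a block, 1 probe set per gene, the mean of a gene's probe sets, leaving out the 15 arrays with 18S above 1, and leaving out each array. Tables and figures were made with Python 3.11.15, numpy 2.4.6, pandas 2.3.3 and matplotlib 3.10.9.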

Additional observations from a re-analysis of the deposited data

Results flagged for a closer look

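Mmp10 differed between the genotypes in its TNFa response by -2.287 ± 0.25 on the log2 scale (limma, adjusted p = 7.03e-07), and the test of that difference brought it here. Of 54 groups of 4 to 10 arrays checked for a single far array, 2 had one, and chance gives about 1 in 20. In KO cultures with TSG6+HA, replicate 4 had the lowest Mmp10 value at -0.178, while the other 3 lay between -0.008 and 0.021 (gap over range 0.852). In untreated WT cultures, replicate 1 had the lowest Timp3 value at -0.825, while the other 4 lay between -0.012 and 0.274 (gap over range 0.74). Without that array the untreated difference of Timp3 between KO and WT was 0.73 (adjusted p = 0.0757).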

How the results depend on the processing

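No called result changed direction under these alternatives. With the culture set as a block the number of the 9 genes called was 5 for TNFa, LPS, TSG6 and TSG6+HA and 1 for HA in WT, 4 for TSG6 in KO, 3 for the genotype difference in the TNFa response and 2 for those in the LPS, TSG6 and TSG6+HA responses, and 2 in WT and 3 in KO for TSG6+HA against HA. Quantile normalization gave 0 for LPS and 1 each for TSG6 and TSG6+HA in WT, and 2 for TSG6+HA against HA in KO. It was run on values already centred per probe set, and gives all arrays the same distribution of them. Under it Mmp9 with TNFa rose by 3.994 against 3.145 in KO, and Mmp10 by 1.926 against 3.066 in WT. A call gained or lost under it is therefore no plain check of how the genotypes differ. With only the groups compared in the fit the counts were 1 for LPS and TSG6 in WT, 1 for HA in KO and 0 for TSG6+HA against HA in KO. The 15 arrays of high 18S left out gave 1 for HA in KO. In WT that setting leaves only the set a array in the TNFa, LPS, HA and TSG6+HA groups. With 1 probe set per gene, or the mean of a gene's probe sets, the genotype difference in the TSG6 response had 1, and the mean gave 1 for TSG6+HA against HA in WT. The cause of these changes was not tested. The shares of all genes called were not counted under any alternative, so the counts given here have no background beside them.

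Leaving out each array in turn gave 1 to 3 genes for LPS and for TSG6 in WT, 2 to 3 for TSG6+HA in WT, 7 to 8 for the untreated genotype difference and 0 to 1 for the genotype difference in the TSG6 response, and left the counts of the other comparisons as reported. With replicate number as a block, 5 genes were called for TNFa in WT (Mmp2 -0.72 and Timp2 -0.68 lower, Timp1 0.40 higher, beside Mmp9 and Mmp10), 4 each for LPS and TSG6 in KO, and 1 in WT and 2 in KO for TSG6+HA against HA. In WT, number 2 joins treated arrays of set b to an untreated array of set a, as numbers 3 and 4 do in KO. For responses to a treatment this block therefore mixes the difference between sets with the treatment. For Mmp2 in untreated WT cultures that difference was -0.865, set b minus set a. The calls that the block added to the responses are not read as effects of treatment. The numbers do not pair the cultures: of 29 same-numbered pairs 11 correlated above 0.1 (-0.566 to 0.554), and 5 correlated best with their own number. These 5 were all the KO cultures numbered 1 (0.348 to 0.554), as a hint from the data that this number ties them together. The filter on dim probes was not run, since centred values hold no level.

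Centring each probe set on its median over the arrays hides its level, so a probe set at background or saturated cannot be seen. WT treated groups rest on 2 arrays, 1 of each culture set. Culture set, endothelial markers and genotype cannot be told apart between KO and WT cultures.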
